A study of Caenorhabditis elegans with 11 samples.

Results

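The 10 genes described here are cuticle collagen genes of Caenorhabditis elegans that carry the name DPY, for the short and stout (dumpy) body of their mutants. Their reads were followed through all 11 whole-worm RNA sequencing libraries of the series. They were chosen by gene symbol, with no measured value in the rule, as 6 collagens of the annular furrows (dpy-2, dpy-3, dpy-7, dpy-8, dpy-9 and dpy-10) and 4 other DPY collagens (dpy-4, dpy-5, dpy-13 and dpy-17). They are 10 of the 42048 genes in the deposited counts, and each had reads and passed the filter on low counts.

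The groups were late adults of the ahr-1 loss-of-function mutant ia3 on K12 bacteria (n = 2), late N2 adults on tnaA bacteria (n = 2), late N2 adults on K12 (n = 2), early N2 adults on tnaA (n = 2) and early N2 adults on K12 (n = 3). N2 is the wild-type strain, K12 bacteria are Escherichia coli able to make indole, tnaA bacteria lack tryptophanase and so make none from tryptophan, and AHR-1 is the worm aryl hydrocarbon receptor. All worms were kept at 16 °C on their bacteria from the embryo onward, about 150 adults were pooled per sample, late worms are given as 12 d, and early worms as 3 d in the labels but as 2-day adults in the text on the design. The labels call the samples biological replicates. Below, late ahr-1, late tnaA, late K12, early tnaA and early K12 stand for these groups.

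The cuticle of C. elegans is a collagen matrix secreted by the epidermis, made anew at each larval moult and ringed by shallow grooves, the annular furrows. Loss of any of the 6 furrow collagens removes these grooves, gives a dumpy body and switches on osmotic, detoxification and antimicrobial genes in the epidermis. In larvae the furrow collagen dpy-7 is switched on earlier in each moult than dpy-13, which is among the other DPY collagens. DPY-17 works together with the collagen SQT-3, and both are cut by the protease DPY-31. Adults no longer moult.

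The libraries held between 8.31 and 15.3 times 1e6 reads in genes. Reads outside genes were 8.27 to 14.8% in late and 6.14 to 7.19% in early libraries, and the TMM factors that scale the libraries were 1.14 to 1.17 in late and 0.82 to 0.877 in early ones, so library composition differed between the ages. The mutated gene ahr-1 had 19 and 14 reads in late ahr-1 libraries, against 56 and 35 reads in late K12 libraries. Summed over the series, dpy-17 had 26532 reads, dpy-10 8251, dpy-2 3760, dpy-3 2398 and dpy-7 1859, whereas dpy-9 had 251, dpy-13 165, dpy-4 139, dpy-5 113 and dpy-8 90. The first 5 genes therefore carry less counting error than the last 5. Spread between libraries comes on top of it: in late over early worms on K12 the standard error (SE) of the log2 fold change was 0.33 for dpy-9 and 0.37 for dpy-3. From start to end of the gene, dpy-8 overlaps C31H2.14 and dpy-4 overlaps atln-2, each on the opposite strand, and dpy-10 overlaps T14B4.19. Whether their exons overlap was not checked, so the counts of these 3 genes may be uncertain to that extent.

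Compared per kilobase of exon, as normalised reads per 1e6 reads (CPM) per kb, dpy-17 was the highest of the 10 genes in every group and dpy-10 the second. In late ahr-1 worms dpy-17 averaged 201 ± 8.54 and dpy-10 35.4 ± 0.583 CPM per kb, in late tnaA worms 270 ± 5.43 and 62.1 ± 5.59, and in late K12 worms 239 ± 29.6 and 57.8 ± 1.71 (SD, n = 2 each). Late K12 worms then had dpy-2 at 31.5 ± 2.95, dpy-3 at 25.8 ± 3.24 and dpy-7 at 18.7 ± 1.26 CPM per kb, each apart from its neighbours in this order. The other furrow collagens were low, with dpy-9 at 2.38 ± 0.421 and dpy-8 at 0.656 ± 0.249 CPM per kb. dpy-13, dpy-4 and dpy-5 stood between these at 1.35 ± 0.956, 1.1 ± 0.702 and 1.04 ± 1.17 CPM per kb, and the libraries of all 3 overlapped with each other and with those of dpy-8. Of all reads of the 10 genes, dpy-17 took 56.5 to 65.9% in every library. In early tnaA worms dpy-17 averaged 29.5 ± 3.65 and dpy-10 7.38 ± 0.797 CPM per kb (n = 2), and dpy-2, dpy-3 and dpy-7 overlapped below them. In early K12 worms dpy-17 averaged 70.7 ± 35.3 CPM per kb, and the libraries ran so far apart that dpy-10, at 11.8 ± 4.57, overlapped dpy-3, at 5.94 ± 5.02 CPM per kb (n = 3).

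**Figure D1:**
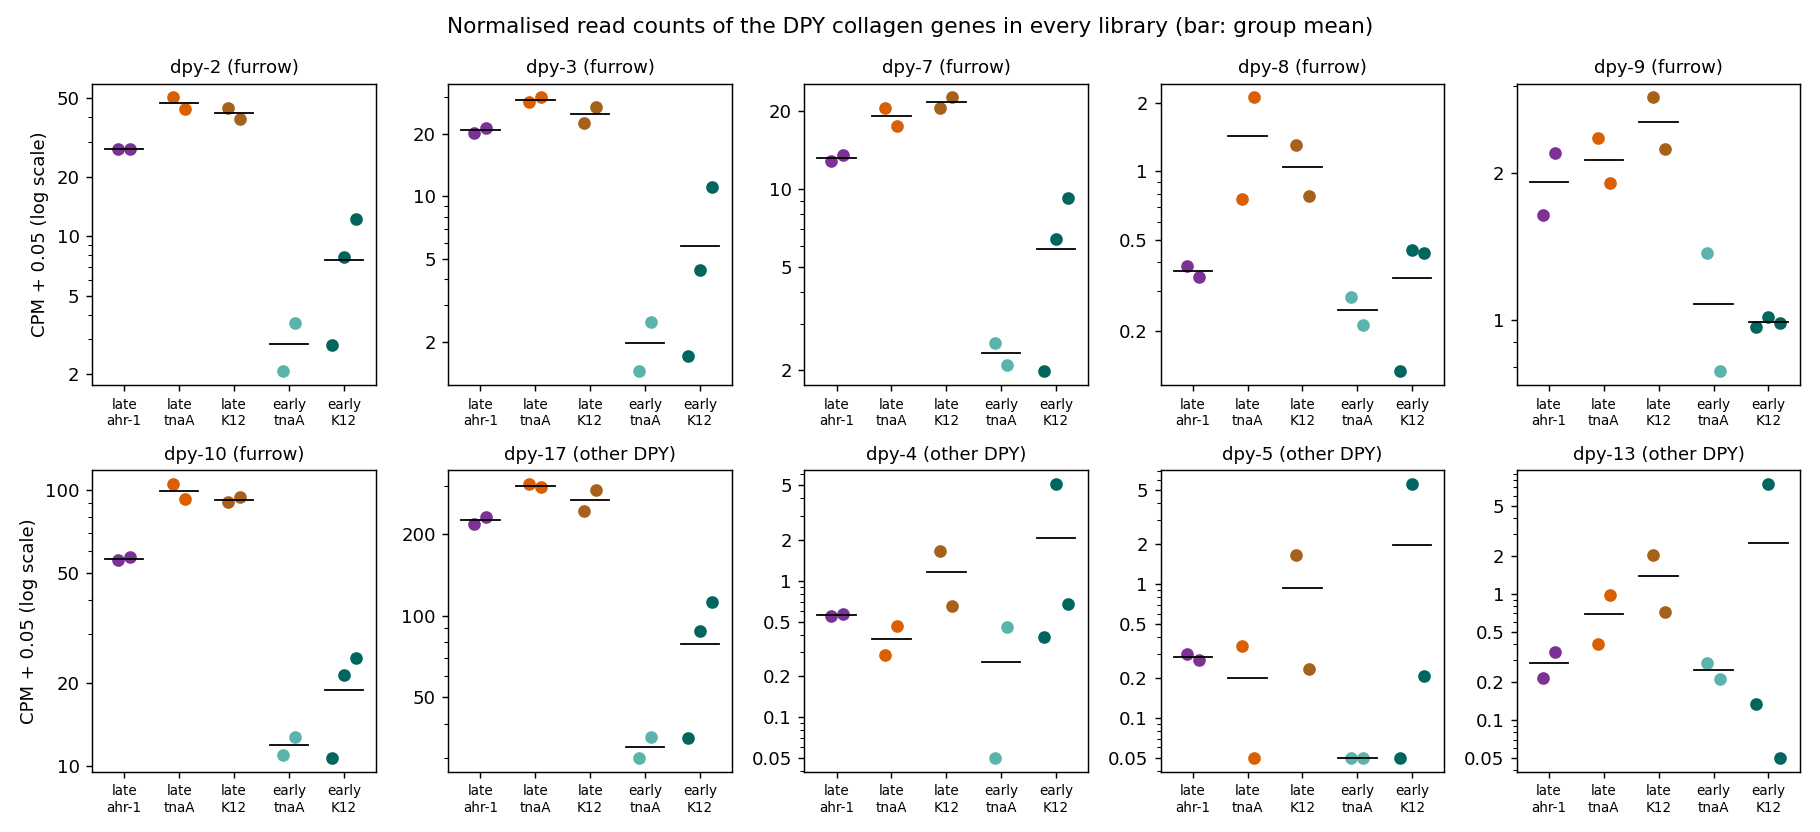
Normalised read counts (CPM plus 0.05, on a log axis with its own range in each panel) of the 10 DPY collagen genes, with 1 point per library and a bar at the group mean, for late ahr-1, late tnaA, late K12, early tnaA and early K12 worms. In the furrow genes and dpy-17 all late wild-type libraries lie above all early ones, whereas dpy-4, dpy-5 and dpy-13 peak in 1 early K12 library.

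The first comparison asked how the genes differed between late and early worms on K12. All 6 furrow collagens and dpy-17 were higher in late worms, by 2.64-fold for dpy-9 up to 5.49-fold for dpy-2, and dpy-4, dpy-5 and dpy-13 were not called. In these 7 genes all late N2 libraries, on either bacterium, lay above all early ones, as they did in 34.0% of all genes tested. Of these, dpy-8 passed the filter on low counts only through its late N2 libraries, with 12 to 22 reads each. It had 1 to 5 reads in each early library and 4 in each late ahr-1 library. Its higher level in late worms is thus not independent of the filter. A call stands for an adjusted p under 0.05 in edgeR's quasi-likelihood test over all 15133 genes tested. Of all genes tested, 32.9% were higher and 36.7% lower at that threshold, 69.6% in either direction. The median log2 fold change was 1.98 over the 6 furrow collagens and -0.87 over the other 4, beside -0.04 over all genes. In RNA of whole worms, a change in the number of epidermal cells that make a collagen and a change in its RNA per cell cannot be told apart. Other tissues moved as well: on either bacterium 8 of 8 body wall muscle genes and 7 of 7 tested intestine genes were lower in late worms, with summed levels of 404 to 563 and 488 to 777 CPM in late libraries, against 4297 to 5148 and 2502 to 3339 CPM in early libraries. Of 10 epidermal marker genes 5 were higher and 3 lower in late worms on either bacterium, with medians of 0.19 on K12 and 0.36 on tnaA. On tnaA 35.6% of all genes were higher and 36.3% lower. The summed level of these markers was 1263 to 1472 CPM in late N2 libraries, against 1049 to 1156 CPM in early libraries. The part of these tissues in the levels of the collagens was not tested.

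The level of dpy-10, the collagen whose mutants serve as a visible marker in genome editing, was 90.2 and 94 CPM in late K12 libraries, against 10.6, 21.3 and 24.5 CPM in early K12 libraries. Late libraries were thus all above early ones, and early replicate 1 was the lowest. The log2 fold change was 2.29 ± 0.19 (SE, adjusted p = 1.19e-07). dpy-2 had 44.5 and 39 CPM in late K12 libraries, against 2.75, 7.78 and 12.1 CPM in early ones. The groups did not overlap, and the spread between early libraries was again wide. The log2 fold change of dpy-2 was 2.46 ± 0.28 (adjusted p = 3.98e-06).

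dpy-3 had 22.5 and 26.9 CPM in late K12 libraries, against 1.67, 4.41 and 11.1 CPM in early K12 libraries, with a log2 fold change of 2.09 ± 0.37 (adjusted p = 0.000184). dpy-7, a furrow collagen whose promoter is often used to drive transgenes in the epidermis, had 20.5 and 22.5 CPM in late libraries, against 1.92, 6.33 and 9.19 CPM in early ones, with a log2 fold change of 1.87 ± 0.31 (adjusted p = 0.000112). As in dpy-2 and dpy-10, early replicate 1 was lowest and early replicate 3 highest. The low furrow genes moved the same way. dpy-9 had 2.8 and 2.18 CPM in late libraries, against 0.917, 0.962 and 0.935 CPM in early ones, and its early libraries lay close together (log2 fold change 1.40 ± 0.33, adjusted p = 0.0018). dpy-8 had 1.26 and 0.727 CPM in late K12 libraries, against 0.0834, 0.401 and 0.389 CPM in early K12 libraries, with a log2 fold change of 1.73 ± 0.66 (adjusted p = 0.0287). That call of dpy-8 was lost without late K12 replicate 1 (log2 fold change 1.28, adjusted p = 0.201) and without early K12 replicate 1 (1.31, adjusted p = 0.0927).

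dpy-17, counted among the other DPY collagens, followed the furrow genes. It had 243 and 289 CPM in late K12 libraries, against 35.5, 87.8 and 112 CPM in early K12 libraries. The groups did not overlap, and the log2 fold change was 1.75 ± 0.27 (adjusted p = 6.07e-05).

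dpy-4, dpy-5 and dpy-13 differed from the rest in where their reads lay. For dpy-13, early K12 replicate 2 held 92 reads and late K12 replicate 1 held 35, whereas the other 9 libraries held 0 to 11. dpy-5 had 69 reads in that early library, 28 in that late library and 0 to 5 elsewhere, and dpy-4 had 63, 28 and 0 to 10. The furrow genes had no such peak in the same early library. Their summed level there was 41.2 CPM, against 17.9 and 58.1 CPM in early K12 replicates 1 and 3. Its levels of dpy-2, dpy-3, dpy-7 and dpy-10 lay between those of the other early K12 libraries. In dpy-8 and dpy-9 it was the highest of them, at 0.401 and 0.962 CPM, with replicate 3 at 0.389 and 0.935 CPM. In early K12 and late K12 worms the means of dpy-4, dpy-5 and dpy-13 were thus set by a single library each. On K12 the log2 fold changes of late over early worms were -0.85 ± 0.91 for dpy-4, -1.07 ± 1.30 for dpy-5 and -0.89 ± 1.20 for dpy-13, none of which passed the test (adjusted p = 0.417, 0.476 and 0.522 in edgeR). Without early K12 replicate 2 they turned to 1.19 for dpy-4 (adjusted p = 0.185), 3.35 for dpy-5 (adjusted p = 0.0422) and 4.77 for dpy-13 (adjusted p = 0.00159), the last 2 then being called higher. Without late K12 replicate 1 they were -1.71, -3.32 and -1.89.

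**Figure D2:**
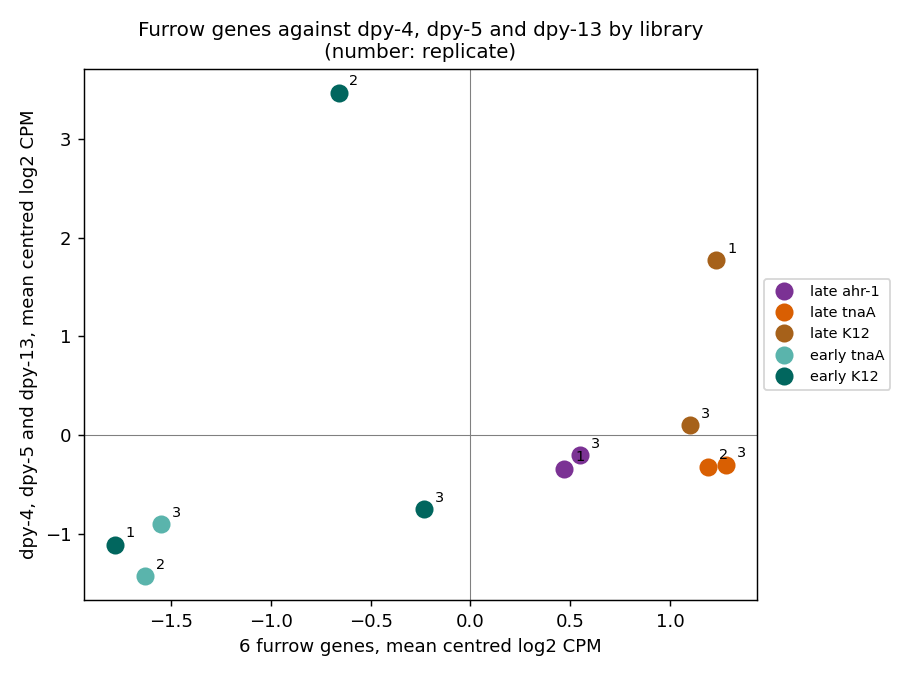
Mean log2 CPM, centred per gene, of the 6 furrow collagens (horizontal) and of dpy-4, dpy-5 and dpy-13 (vertical) in each of the 11 libraries, with the replicate number beside each point. The late libraries lie between 0.47 and 1.28 on the furrow axis and the early ones between -1.78 and -0.23, whereas on the other axis early K12 replicate 2 stands at 3.47 and late K12 replicate 1 at 1.77.

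The grouping of dpy-4, dpy-5 and dpy-13 was chosen after their values were seen. Some body-shape collagens outside the 10 genes shared the pattern and were likewise picked after their values were seen. rol-1, whose mutants roll, had 75 reads in early K12 replicate 2 and 0 to 2 in every other library. sqt-1, a further collagen of body shape, had 26 reads in early K12 replicate 2, 39 and 16 in late K12 replicates 1 and 3, and 0 in the other 4 early libraries.

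On tnaA bacteria, which lack the indole source, late worms again had higher levels of all 6 furrow collagens and dpy-17 than early worms, by 2.03-fold for dpy-9 up to 17-fold for dpy-2. The other 3 genes were not called. Of all genes tested, 35.6% were higher and 36.3% lower in this comparison, 72.0% in either direction. The median log2 fold change was 3.08 over the furrow collagens and 2.37 over the other DPY collagens, beside 0.02 over all genes. The value of 2.37 takes in dpy-4, dpy-5 and dpy-13, with only 8, 5 and 15 reads in late tnaA worms. Early tnaA worms had 5, 0 and 5 reads of these genes. The largest changes were in dpy-2, with 50.3 and 44.1 CPM in late tnaA libraries, against 2.02 and 3.59 CPM in early tnaA libraries (log2 fold change 4.08 ± 0.39, adjusted p = 5.11e-07), and dpy-3, with 28.2 and 29.8 CPM in late tnaA libraries, against 1.4 and 2.45 CPM in early tnaA libraries (3.91 ± 0.51, adjusted p = 1.13e-05). Late and early libraries lay far apart in both genes.

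dpy-17 had 304 and 296 CPM in late tnaA libraries, against 29.9 and 35.6 CPM in early tnaA libraries, with a log2 fold change of 3.20 ± 0.34 (adjusted p = 1.6e-06). dpy-10 had 105 and 92.6 CPM, against 10.9 and 12.7 CPM in early tnaA libraries, with a log2 fold change of 3.08 ± 0.23 (adjusted p = 4.52e-08). dpy-7 had 20.5 and 17.5 CPM, against 2.48 and 2.04 CPM in early tnaA libraries (3.07 ± 0.42, adjusted p = 1.93e-05). Replicates on tnaA lay close together in these 3 genes at either age.

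For the low furrow genes the calls rested on single libraries, and dpy-8 passed the filter on low counts only through the late N2 libraries. dpy-8 had 0.708 and 2.06 CPM in late tnaA libraries, against 0.233 and 0.163 CPM in early tnaA libraries (log2 fold change 2.68 ± 0.80, adjusted p = 0.00737), and without late tnaA replicate 3 the adjusted p was 0.0865. dpy-9 had 2.3 and 1.85 CPM, against 1.32 and 0.735 CPM in early tnaA libraries (1.02 ± 0.38, adjusted p = 0.0261), and the adjusted p was 0.143 without late tnaA replicate 2 and 0.18 without early tnaA replicate 3. DESeq2 did not call dpy-9 either (adjusted p = 0.102). dpy-5 had 5 reads in late tnaA replicate 2 and 0 in late tnaA replicate 3 and in early tnaA worms. The libraries thus overlapped, and dpy-5 was not called (adjusted p = 0.38 in edgeR). With a floor of 3 counts in all for the early group, the pooled counts gave at least 1.57-fold, a value that rests on 1 library. Without late tnaA replicate 2 the log2 fold change was 0.00. dpy-4 and dpy-13 had log2 fold changes of 0.60 ± 1.67 and 1.54 ± 2.07 (adjusted p = 0.75 and 0.504 in edgeR).

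**Figure D3:**
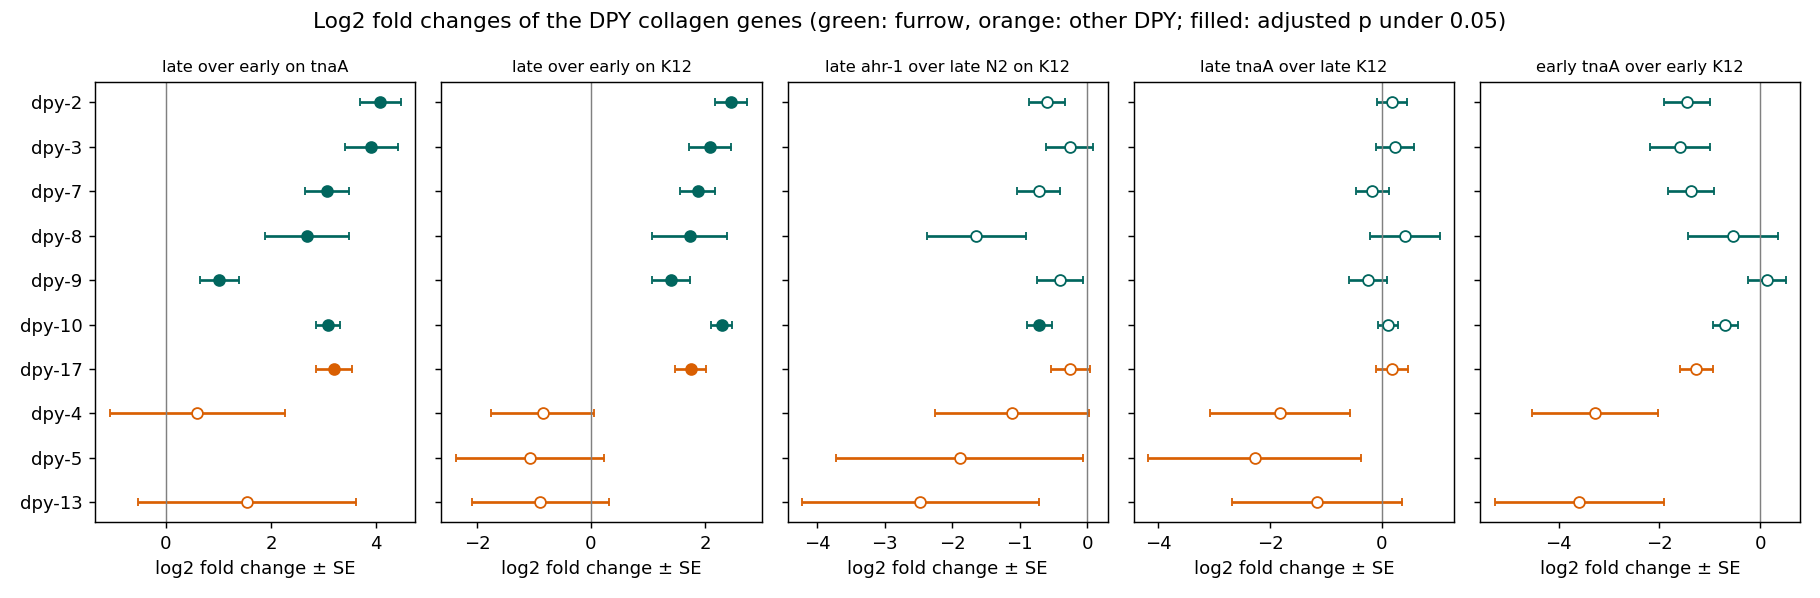
Log2 fold change of each gene in 5 comparisons, with whiskers of 1 standard error, furrow collagens in green and other DPY collagens in orange. Filled points have an adjusted p under 0.05, each panel has its own axis range, and dpy-5 has no standard error, hence no point, where early tnaA worms had 0 reads. The 6 furrow genes and dpy-17 are filled and right of 0 in both late over early panels, and dpy-10 alone is filled in the late ahr-1 panel.

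With library sizes alone in place of TMM, the median of all genes in late over early worms shifted upward by 0.42 on K12 and 0.47 on tnaA on the log2 scale, the direction in which the 7 genes already lay. The split of all calls was then 7755 higher and 3032 lower on K12, beside 4974 higher and 5553 lower with TMM, and 7848 higher and 3140 lower on tnaA, beside 5394 higher and 5498 lower with TMM. The same number of the 10 genes, 7, was called higher on each bacterium, and 0 were called lower.

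Whether ageing differed between the bacteria was tested with the difference of both log2 changes, tnaA minus K12. None of the 10 genes was called by edgeR, where 0.971% of all genes were higher and 1.43% lower, 2.41% in either direction. The difference was 1.63 ± 0.53 for dpy-2 (adjusted p = 0.106), 1.82 ± 0.69 for dpy-3 (0.151), 1.20 ± 0.56 for dpy-7 (0.235), 0.79 ± 0.31 for dpy-10 (0.16) and 1.44 ± 0.44 for dpy-17 (0.0866). These 5 genes had an unadjusted p under 0.05, as did 3216 of all genes. DESeq2 called none of the same 5 genes (adjusted p between 0.149 and 0.394) and gave no adjusted p for the other 5. Without early K12 replicate 1, the same 5 genes were called higher, with differences of 2.02, 2.24, 1.61, 1.07 and 1.79 and adjusted p between 0.000148 and 0.0197. With all libraries and no filter on low counts, 6 of the 10 genes were called higher, these 5 and dpy-5.

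Early worms on tnaA and on K12 differed little across the transcriptome, with 0.0529% of genes higher and 0.0132% lower on tnaA, 0.0661% in either direction. None of the 10 genes was called by edgeR or by DESeq2, and 1143 of all genes had an unadjusted p under 0.05. Such unadjusted values were reached by dpy-2, dpy-3, dpy-7, dpy-10, dpy-17, dpy-4, dpy-5 and dpy-13. For dpy-4, dpy-5 and dpy-13 they rested on early K12 replicate 2, with 63, 69 and 92 reads. Early K12 replicate 1 had 4, 0 and 1 reads of these genes, and early K12 replicate 3 had 8, 2 and 0. Without early K12 replicate 2 the log2 fold change of dpy-13 turned to 2.07. dpy-17 had 29.9 and 35.6 CPM in early tnaA libraries, against 35.5, 87.8 and 112 CPM in early K12 libraries (log2 fold change -1.27 ± 0.33, unadjusted p = 0.00211, adjusted p = 0.181). dpy-2 had 2.02 and 3.59 CPM in early tnaA libraries, against 2.75, 7.78 and 12.1 CPM in early K12 libraries (-1.45 ± 0.46, adjusted p = 0.319). In both genes early K12 replicate 1 lay at the level of the tnaA libraries while replicates 2 and 3 lay above them, so the groups overlapped.

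The calls changed with that library and with the filter. Without early K12 replicate 1, dpy-2, dpy-3, dpy-7, dpy-10 and dpy-17 were called lower in early tnaA worms, with log2 fold changes of -1.83, -2.02, -1.77, -0.96 and -1.61 (adjusted p between 5.37e-05 and 0.0245), and 187 of all genes were lower then, beside 2 with all libraries. With all libraries and no filter on low counts, edgeR called 8 of the 10 genes lower in early tnaA worms, all but dpy-8 and dpy-9 (adjusted p between 1.5e-49 and 2.08e-05), and 274 of all genes. Among these 8, dpy-4, dpy-5 and dpy-13 again had most of their early K12 reads in replicate 2. The log2 fold change of dpy-17 was -1.27 with and without the filter, while its adjusted p went from 0.181 to 1.5e-49. Its libraries overlapped between the groups, so the p-values with no filter do not measure the spread between replicates. None of 13 marker genes of moulting was called in this comparison, with log2 fold changes from -2.11 to 0.18. Their summed level was 93.8 to 104 CPM in early tnaA libraries, against 104, 200 and 257 CPM in early K12 replicates 1, 2 and 3, and 13 of 13 had reads in each library. Their part in the difference between early libraries was not tested.

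Late worms on tnaA and on K12 differed in none of the 10 genes by edgeR's test, where 4.27% of genes were higher and 5.85% lower on tnaA, 10.1% in either direction. No gene of the 10 had an unadjusted p under 0.05, whereas 4001 of all genes did. DESeq2 gave an adjusted p for 4 of the 10 genes, dpy-2, dpy-3, dpy-10 and dpy-17, and called none of them. The median log2 fold change was 0.15 over the furrow collagens, beside 0.06 over all genes. dpy-10 had 105 and 92.6 CPM in late tnaA libraries, against 90.2 and 94 CPM in late K12 libraries, and its log2 fold change was 0.11 ± 0.18 (adjusted p = 0.75). dpy-2 differed by 0.18 ± 0.26, dpy-3 by 0.23 ± 0.34, dpy-7 by -0.17 ± 0.30 and dpy-17 by 0.18 ± 0.28. For dpy-4 (-1.82 ± 1.25), dpy-5 (-2.27 ± 1.90) and dpy-13 (-1.16 ± 1.51) the errors were several times larger and none was called. With no filter on low counts dpy-4 (-1.85, adjusted p = 0.0399) and dpy-5 (-2.29, adjusted p = 0.024) were called lower in late tnaA worms by edgeR. Over all genes, the numbers called here were 646 higher and 886 lower, and they were 161 and 350 with late tnaA replicate 2 left out, 19 and 10 with late tnaA replicate 3 left out, 15 and 41 with late K12 replicate 1 left out, and 319 and 511 with late K12 replicate 3 left out. No gene of the 10 is listed among the 1380 genes of the authors' deposited table for this pair of groups.

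Late ahr-1 mutants were compared with late wild type on the same K12 bacteria. dpy-10 was lower in the mutants, at 0.612-fold, and was the only 1 of the 10 genes called, where 12.2% of all genes were lower and 12.3% higher, 24.4% in either direction. It had 55.7 and 57 CPM in late ahr-1 libraries, against 90.2 and 94 CPM in late K12 libraries. The groups were far apart beside their spread, and the log2 fold change was -0.71 ± 0.19 (adjusted p = 0.0152). With 1 library less the size held but the call did not: the log2 fold change was -0.69 without late ahr-1 replicate 1 (adjusted p = 0.0714), -0.73 without late ahr-1 replicate 3 (0.0501), -0.74 with late K12 replicate 1 left out (0.0658) and -0.68 with its replicate 3 left out (0.0687). DESeq2 over all libraries gave -0.75 (adjusted p = 0.116).

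A further pair of furrow genes had values near those of dpy-10 without passing the test. dpy-2 had 27.5 and 27.6 CPM in late ahr-1 libraries, against 44.5 and 39 CPM in late K12 libraries (log2 fold change -0.60 ± 0.27, adjusted p = 0.127). dpy-7 had 12.7 and 13.4 CPM, against 20.5 and 22.5 CPM in late K12 libraries (-0.72 ± 0.32, adjusted p = 0.118). Both passed when only the groups compared entered the fit (adjusted p = 0.00142 and 0.00215). With no filter on low counts they passed as well (8.47e-07 and 2.13e-05), at log2 fold changes of -0.63 and -0.74, so their size hardly changed. Both also passed without early K12 replicate 1 (0.0114 and 0.00425) or early K12 replicate 3 (0.0368 and 0.0386). These libraries are in neither group and enter through the shared estimate of the spread. The authors' deposited table lists 2071 genes for this comparison, among them dpy-10 at a log2 fold change of -0.68 (SE 0.10, adjusted p = 8.78e-09), dpy-2 at -0.55 (SE 0.14, adjusted p = 0.00115) and dpy-7 at -0.61 (SE 0.17, adjusted p = 0.00447) and no other of the 10.

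Of the remaining genes, dpy-3 had 20 and 21.3 CPM in late ahr-1 libraries, against 22.5 and 26.9 CPM in late K12 libraries (-0.26 ± 0.35, adjusted p = 0.64). dpy-17 had 217 and 230 CPM, against 243 and 289 CPM in late K12 libraries (-0.25 ± 0.29, adjusted p = 0.573). dpy-9 had 1.59 and 2.14 CPM, against 2.8 and 2.18 CPM in late K12 libraries (-0.41 ± 0.34, adjusted p = 0.416), and dpy-8 had 0.334 and 0.296 CPM, against 1.26 and 0.727 CPM in late K12 libraries (-1.64 ± 0.73, adjusted p = 0.118). All 10 log2 fold changes were below 0, with a median of -0.66 over the furrow collagens and -1.50 over the other DPY collagens, beside 0.00 over all genes. The value of -1.50 lies between those of dpy-4 and dpy-5. Of these, late K12 replicate 1 held 28 and 28 reads and late K12 replicate 3 held 10 and 3. Without late K12 replicate 1 dpy-5 was at 0.36, so not all 10 were then below 0. Both late ahr-1 libraries lay below both late K12 libraries in 32.1% of all genes tested, and among the 10 in each gene except dpy-5, whose values of 0.251 and 0.222 CPM fell between the late K12 values of 1.6 and 0.182 CPM. dpy-4 (-1.11 ± 1.14), dpy-5 (-1.89 ± 1.83) and dpy-13 (-2.47 ± 1.75) were not called, and without early K12 replicate 2 dpy-13 was (adjusted p = 0.0385). The comparison of mutants with wild type and that of tnaA with K12 share the late K12 libraries.

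Epidermal markers moved with this comparison. Of 10 such genes 6 were lower in late ahr-1 worms and none higher, beside 12.2% and 12.3% of all genes, among them the keratin-like filament gene ifb-1 (-0.26 ± 0.07) and the apical secretion gene che-14 (-0.69 ± 0.19), with a median of -0.30. Their summed level nevertheless was 1224 to 1370 CPM in late ahr-1 libraries, against 1263 to 1294 CPM in late K12 libraries, and none was at 0 in any library. Of 13 tested sperm genes 8 were higher, and of 12 oocyte and eggshell genes 1 was higher and 10 were lower. With late ahr-1 replicate 1 or 3 or late K12 replicate 1 or 3 left out, 3, 2, 1 and 1 of the epidermal genes were lower, and with late ahr-1 replicate 1, late K12 replicate 1 or late K12 replicate 3 left out, 4, 1 and 3 of the sperm genes were higher. The part of epidermal or germline RNA in the level of dpy-10 was not tested.

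Across the 11 libraries the furrow collagens varied together. Pearson's r of log2 CPM over all 11 libraries had a median of 0.83 over the 15 pairs of furrow genes, from 0.69 to 0.99, as a description of libraries that fall apart by age. Within the 6 late libraries the median was 0.70, from 0.14 to 0.97, and within the 5 early libraries 0.87, from -0.32 to 0.98. dpy-9 was apart within early libraries, with r of -0.32 with dpy-2, -0.28 with dpy-3 and -0.17 with dpy-10. dpy-2, dpy-3, dpy-7 and dpy-10 were the tight core, and within late libraries r was 0.97 for dpy-2 with dpy-10 but 0.14 for dpy-3 with dpy-9. dpy-17 had a median r of 0.98 with the furrow genes over all libraries, 0.79 within late and 0.96 within early ones. With dpy-4, dpy-5 and dpy-13 its median r was 0.27 over all libraries, -0.39 within late and 0.65 within early ones. Those 3 genes had a median r of 0.81 with each other and of 0.24 with the furrow genes. They were grouped after their shared peaks in early K12 replicate 2 and late K12 replicate 1 were seen, so the 0.81 follows from that choice. dpy-5, with 0 to 5 reads in every other library, passed the filter on low counts only through these libraries. dpy-4 would not have passed without them either: of the others only late K12 replicate 3, with 10 reads, reached the minimum count.

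By the same measure, the 10 genes most like the mean furrow profile, of 12821 with a mean of at least 1 CPM, were col-121 (r = 0.994), cut-5 (0.993), ptr-4, lpr-6, dsl-6 and lpr-3 (0.992 each), dpy-14, Y97E10AR.1 and dao-2 (0.990 each) and atf-2 (0.989), over 11 libraries. col-121 and dpy-14 are further cuticle collagens, cut-5 is a cuticlin, ptr-4 is a Patched-related gene needed for moulting, and lpr-3 and lpr-6 are lipocalins of the extracellular matrix. For the other DPY collagens the likeness was lower, led by E01G4.6 (0.864), T22B11.3 (0.863), sqt-2 (0.858) and col-38 (0.852).

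Genes around the furrow collagens were described from lists. Of 13 genes known for moulting and for the apical matrix of larvae and embryos, 12 were higher in late than in early worms on K12 and none lower, and 13 of 13 were higher on tnaA, beside 32.9% and 35.6% of all genes. Their medians were 2.86 and 4.21. The matrix genes let-653 (3.34 ± 0.12 on K12, 3.44 ± 0.14 on tnaA) and fbn-1, a fibrillin-like gene (3.61 ± 0.22 and 4.97 ± 0.28), had the smallest p. The summed level of the list was 1134 to 1162 CPM in late ahr-1, 1519 to 1657 CPM in late tnaA and 1270 to 1366 CPM in late K12 libraries, against 93.8 to 104 CPM in early tnaA and 104 to 257 CPM in early K12 libraries, and no gene was at 0 in any of them. Of 7 tested genes of the early zygotic embryo, 2 were higher and 2 lower in late than in early worms on each bacterium. Of all genes, 36.7% were lower on K12 and 36.3% on tnaA. The log2 fold changes of the 7 genes ran from -2.03 to 1.30 on K12 and from -1.61 to 2.07 on tnaA. The summed level over 12 such genes was between 11.4 and 16.8 CPM in every library, and 0 to 3 of them were at 0 in a library. The part of RNA from larvae or embryos within the adults in the levels of the furrow collagens was not tested.

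Of 16 regulators of epidermis and moult, 10 were higher, 2 lower and 4 not called in late against early worms on K12, beside 32.9% of all genes higher and 36.7% lower. On tnaA 12 were higher and 1 lower, beside 35.6% of all genes higher and 36.3% lower. The nuclear receptor gene nhr-25, which is needed for moulting, was at 37.6 CPM in late K12 worms, against 4.1 CPM in early K12 worms (log2 fold change 3.19 ± 0.13), and at 50.5 CPM in late tnaA worms, against 2.75 CPM in early tnaA worms (4.20 ± 0.17). elt-1, a GATA factor that sets epidermal fate, changed by 1.94 ± 0.12 on K12 and 2.54 ± 0.14 on tnaA. The moulting regulator bed-3 changed by 1.72 ± 0.12 and 2.35 ± 0.15 and the BMP pathway gene sma-9 by 1.03 ± 0.06 and 1.44 ± 0.06. In nhr-25 and sma-9 the difference between both ageing changes was itself called, at 1.01 ± 0.24 and 0.41 ± 0.08 (adjusted p = 0.0494 and 0.0407), but neither call held with any single late N2 or early tnaA library or early K12 replicate 2 left out. Between late tnaA and late K12 worms, 4.27% of all genes were higher on tnaA and 5.85% lower. Of the 16 regulators 3 were higher and none lower there: nhr-25 (0.43 ± 0.11), blmp-1 (0.35 ± 0.10) and sma-9 (0.36 ± 0.06). Dropping late K12 replicate 1 left 0 of them, and dropping any of the other late N2 libraries left 1. In late ahr-1 mutants 5 of the 16 were lower and 1 higher, beside 12.2% and 12.3% of all genes. Among them were nhr-25 (-0.52 ± 0.12), elt-3 (-0.72 ± 0.15) and blmp-1 (-0.44 ± 0.10), all lower, and sma-9 (0.36 ± 0.06), higher. Left out in turn, late ahr-1 replicate 1 and late K12 replicate 1 reduced the number lower to 3 and 1.

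**Figure D4:**
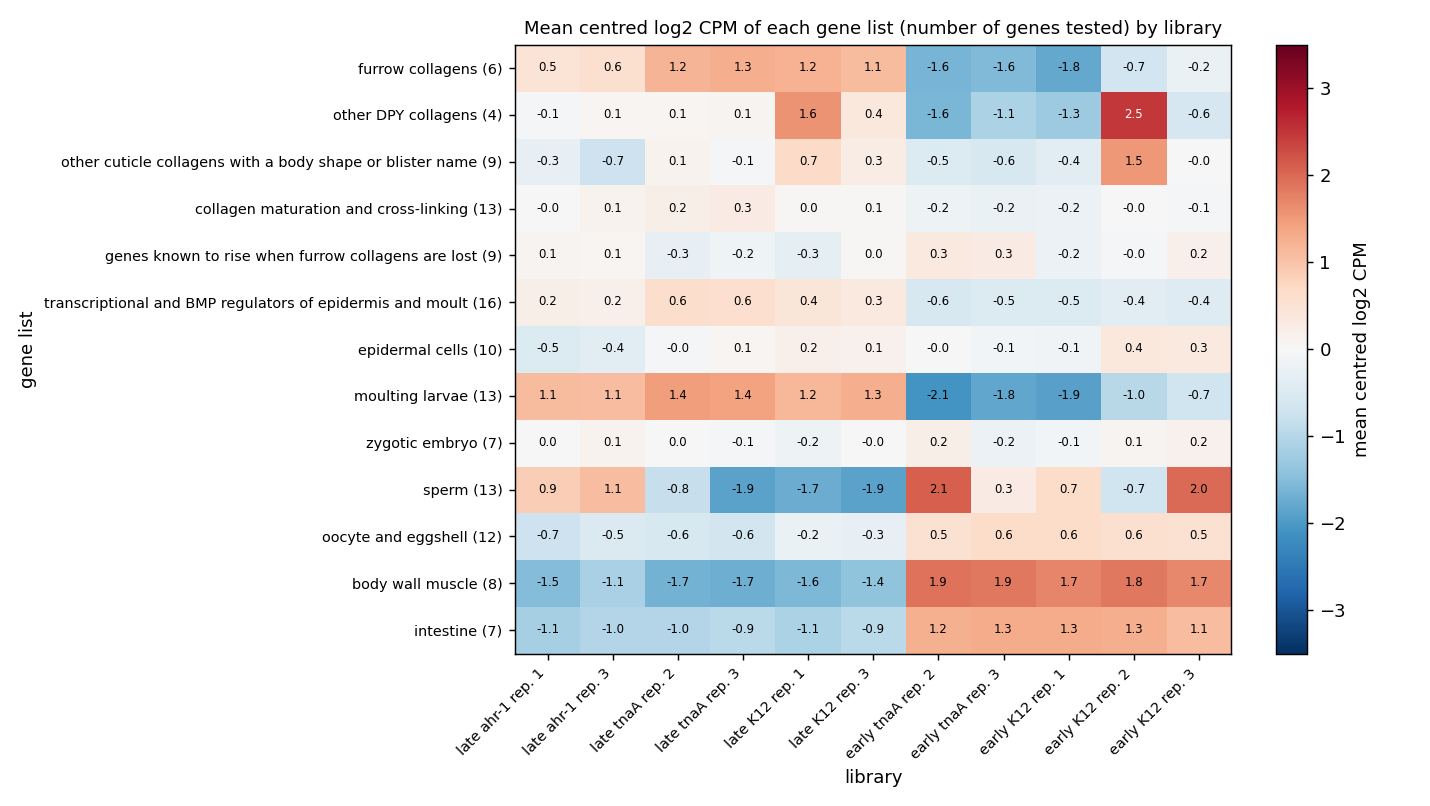
Mean log2 CPM, centred per gene, of each gene list (rows, with the number of genes tested) in each of the 11 libraries (columns), printed in each cell and coloured from blue (low) to red (high). The furrow collagens and the moulting list are high in all 6 late libraries, and the other DPY collagens reach 2.47 in early K12 replicate 2.

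Of the other 9 tested cuticle collagens with a name for body shape or blisters, 2 were higher and 2 lower in late than in early worms on K12, and 7 were higher with early K12 replicate 2 left out and 1 with late K12 replicate 1 or 3 left out. Of all genes, 32.9% were higher and 36.7% lower on K12. dpy-14, a collagen of the embryo and early larva, was at 293 CPM in late K12 worms, against 56.6 CPM in early K12 worms (2.37 ± 0.29). sqt-3, the partner of dpy-17, was at 108 CPM in late K12 worms, against 62.9 CPM in early K12 worms (0.77 ± 0.28). The adult collagen col-19 went the other way, with 29.7 CPM in late K12 worms, against 1391 CPM in early K12 worms (-5.55 ± 0.21). bli-6, a blister collagen, was at 0.173 CPM in late K12 worms, against 10.6 CPM in early ones (-5.83 ± 0.60). On tnaA 4 of the 9 were higher and 2 lower, beside 35.6% and 36.3% of all genes. dpy-14 (3.97 ± 0.38) and sqt-3 (2.61 ± 0.36) were among the higher ones, and the 2 lower ones were again col-19 (-5.87 ± 0.23) and bli-6 (-5.46 ± 0.63).

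Of 13 tested genes of collagen maturation and cross-linking, 4 were higher and 3 lower in late than in early worms on K12, where 32.9% of all genes were higher and 36.7% lower. On tnaA 6 were higher and 3 lower, where 35.6% of all genes were higher and 36.3% lower. Scaled by library size alone, 7 were higher and 1 lower on K12 and 10 higher and 0 lower on tnaA. dpy-18, the catalytic subunit of prolyl 4-hydroxylase, changed by 1.76 ± 0.07 on K12 and 2.17 ± 0.08 on tnaA, and its partner pdi-2 by 0.32 ± 0.05 and 0.56 ± 0.06. mlt-7, a peroxidase of the cuticle, was lower on K12, at -1.04 ± 0.16. Of the 13 genes 2 were higher and none lower in late ahr-1 mutants, beside 12.3% and 12.2% of all genes, so the number higher was near the share of all genes. In late ahr-1 mutants pdi-2 (0.22 ± 0.06) and dpy-31, the protease that cuts DPY-17 (0.40 ± 0.11), were the 2 called, both higher, with 0 called when late K12 replicate 1 was left out and 1 when late ahr-1 replicate 3 was.

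Of 9 genes known to rise when furrow collagens are lost, 2 were higher and 4 lower in late than in early worms on K12, and 2 were higher and 5 lower on tnaA. On K12 these counts were near the shares of all genes, 32.9% higher and 36.7% lower. On tnaA 35.6% of all genes were higher and 36.3% lower. Scaled by library size alone, 4 were higher and 2 lower on K12. The antimicrobial peptide gene cnc-2 was among the higher ones (1.73 ± 0.13 on K12, 1.28 ± 0.15 on tnaA), and the glutathione transferase gst-4 among the lower ones (-2.02 ± 0.15 and -1.89 ± 0.15). In late ahr-1 mutants 3 of the 9 were higher and none lower, beside 12.3% and 12.2% of all genes. There cnc-2 was at 23.9 CPM, against 11.7 CPM in late wild type (1.03 ± 0.12, adjusted p = 0.000151), and the antimicrobial genes nlp-31 and nlp-29 changed by 0.70 ± 0.22 and 0.55 ± 0.17. The other 6 were not called there. With late ahr-1 replicate 1 or late K12 replicate 1 left out, 1 of the 9 was higher.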

How the data were processed

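Per the submitters' processing notes, reads were trimmed, aligned and counted with Trim Galore, STAR and HTSeq 0.6.1p2, and the authors deposited the raw read counts of each library, without normalisation. Build, annotation and strand setting were not given in the sources used, hence no coordinates, and a gene and its antisense neighbour may share reads. The authors also deposited DESeq2 results for both late comparisons (log2 fold changes, p-values), in which 8 columns of sample values were not used. The 2 summary lines per library (no gene, ambiguous) stayed out of library sizes and tests.

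Counts were tested in edgeR 4.0.16 (R 4.3.3). filterByExpr by group, minimum count 10, kept 15133 genes, TMM scaled the libraries, and 1 quasi-likelihood model of group means took in all 11 libraries, with 6 residual degrees of freedom. The F test is two-sided, with Benjamini-Hochberg adjustment across the 15133 genes in each of 6 comparisons, and a call needs an adjusted p under 0.05. The SE is the unshrunk log2 fold change, without its sign, divided by the root of F. CPM are counts per 1e6 of the TMM-scaled library size, and CPM per kb use exon lengths from Ensembl release 115, which may differ from the authors' annotation. No molecular identifiers were counted, so a floor of 3 counts covers counting error only. Correlations use log2 CPM with a prior count of 2.

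The 10 genes and the lists were chosen with earlier results of these data known. All 10 are named throughout, and from each other list up to 4 called genes with the smallest p per comparison. Of the list genes, 4 were not found among the symbols. The code was tested on simulated counts. Alternatives were other scalings, filters and tools (DESeq2 1.42.0), fits on the compared groups only or with the replicate number as a block, and leaving out libraries. The pair early K12 replicate 2 and late K12 replicate 1 was chosen for this after the data were seen.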

Additional observations from a re-analysis of the deposited data

How the results depend on the processing

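The higher levels of dpy-2, dpy-3, dpy-7, dpy-10 and dpy-17 in late than in early worms kept their direction and call on both bacteria under every alternative tried, and the number of the 10 genes called higher was 6 to 9 on K12 and 6 to 7 on tnaA when leaving out 1 library. Of 1171 values of the single genes under the alternatives, 1086 kept their direction and side of the threshold, 16 lost a call, 43 gained one and 26 turned in direction.

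The number called lower in late ahr-1 worms was 1, and it was 6 with no filter on low counts, 0 with DESeq2, 5 with the compared groups only, 3 without early K12 replicate 3 and early tnaA replicate 2, the sperm-rich early libraries, 0 without both libraries high in dpy-4, dpy-5 and dpy-13 (chosen after the data were seen) and 0 to 3 when leaving out 1 library. With no filter 2 genes were called lower in late tnaA worms (dpy-4 and dpy-5), 8 in early tnaA worms and 6 as higher in the difference of ageing changes. Leaving out 1 library gave 0 to 5 for each of the last 2. In the late tnaA, late ahr-1 and early tnaA comparisons, log2 fold changes with no filter stayed near those with it while adjusted p fell. It fell to 1.5e-49 for dpy-17 in early tnaA over early K12. Calls there that arose with no filter therefore do not rest on much larger differences. The cause of these shifts was not tested.

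Directions turned mostly in the genes with few reads. With the replicate block dpy-10 and dpy-17 were at -0.09 and -0.10 in late tnaA over late K12, and dpy-4, dpy-5 and dpy-13 at 0.20, 2.90 and 1.44 in late over early on K12. Without both libraries high in them the last 3 were at 0.33, 1.09 and 3.76, dpy-5 at 0.36 in late ahr-1, and dpy-13 at 2.06 in early tnaA over early K12 and -2.21 in the difference of ageing changes. Without both sperm-rich early libraries dpy-4 was at -0.42 in late over early on tnaA, and dpy-9 at -0.35 in early tnaA over early K12 and 0.11 in the difference. Leaving out 1 library gave -0.49 to 1.04 for dpy-8 in late tnaA and -2.72 to 0.36 for dpy-5 in late ahr-1. In late over early on K12 it gave -1.71 to 1.19 for dpy-4, -3.32 to 3.35 for dpy-5 and -1.89 to 4.77 for dpy-13, and on tnaA -0.41 to 5.1 for dpy-4 and 0 to 5.08 for dpy-5. In early tnaA over early K12 it gave -0.35 to 0.49 for dpy-9 and -4.18 to 2.07 for dpy-13, and in the difference -0.73 to 0.1 for dpy-9, -0.59 to 5.95 for dpy-4 and -3.23 to 3.43 for dpy-13.

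The call of dpy-8 in late over early worms on K12 was lost with DESeq2 (adjusted p = 0.0778) and with the replicate block (0.0962), and that of dpy-9 on tnaA with the compared groups only (0.0513). Whether the replicate numbers pair the samples is not known. Deviations from group means correlated at -0.55 to 0.15 in 16 pairs of libraries with the same number and at -0.15 to 0.55 in 32 pairs with different numbers. In a group of 2 libraries the deviations mirror each other, so these correlations cannot decide on pairing. With the block, 25 genes were higher and 21 lower in late tnaA over late K12, beside 646 and 886, and 6 and 4 in the difference of ageing changes, beside 147 and 217. DESeq2 called 429 higher in late tnaA, 585 lower in the difference and 1134 higher in late ahr-1, beside 1855. Compared groups only gave 1369 lower in late tnaA, and 327 higher and 942 lower in the difference. Without the 2 libraries high in dpy-4, dpy-5 and dpy-13, 8 genes were higher and 21 lower in late tnaA, 602 and 555 in late ahr-1 (beside 1855 and 1840) and 3 and 7 in the difference. Without both sperm-rich libraries the difference gave 13 and 30. With no filter it gave 634 and 689, and early tnaA gave 171 higher and 274 lower, beside 8 and 2 and beside 42 and 46 with DESeq2. With library sizes alone 3140 genes were lower in late over early on tnaA, beside 5498. Counts were lowest for dpy-8, dpy-9, dpy-4, dpy-5 and dpy-13, with 90 to 251 reads over the series, so their values carry the most counting error.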
